A study of Mus musculus with 12 samples.

Results

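The 37 genes described here serve 2 linked stress programmes of the cell, and they were measured in limb bud mesenchyme of E14.5 mouse embryos. They are the listed genes of the integrated stress response, amino acid supply and endoplasmic reticulum folding, found by symbol among the 54532 Ensembl genes of the deposited table. All 37 were found. They fall into 20 genes of the amino acid response, which are Atf4, its targets and partners, and 17 chaperones and sensors of the endoplasmic reticulum. The iCreb5 cells made bovine Creb5, a transcription factor, with an HA tag and alongside GFP. The tdTomato cells instead made the red protein tdTomato from a Cre-activated Rosa26 allele. Both kinds of embryo carried Prrx1-Cre, which opens the allele in limb bud mesenchyme, and both came from crosses of Prrx1-Cre males to females with the 2 Rosa26 alleles. Fluorescent cells were sorted, and polyadenylated RNA was sequenced in 6 iCreb5 libraries (3a, 3b, 3c, 4a, 5 and 6) and 6 tdTomato libraries (3a, 3b, 3c, 4a, 5b and 6d). The number in each name was taken as the litter. The titles and batch labels mark 4 such numbers, while the design text counts 6 litters, so all litter results below rest on this reading. By it litter 3 gave 3 libraries to each group, and litters 4, 5 and 6 gave 1 each.

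When amino acids run short or unfolded proteins gather in the reticulum, kinases phosphorylate the initiation factor eIF2. Most translation then slows, while the mRNA of the transcription factor Atf4 is translated more. Atf4 binds as a dimer with C/EBP family proteins and raises genes for amino acid synthesis and import, among them Asns. The reticulum has 3 sensors of its own: the kinase PERK (gene Eif2ak3), which feeds into eIF2, the nuclease IRE1 (Ern1), which splices Xbp1 mRNA, and the membrane-bound factor Atf6. The last 2 raise chaperones such as Hspa5. Cartilage and bone cells, which secrete large amounts of collagen, are known to depend on this machinery. The table measures mRNA abundance, so phosphorylation, Xbp1 splicing and Atf4 translation were not measured.

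The promoters differ between the 2 classes, and 4 are shown because they carry the elements through which the programmes are known to act. Each stretch is the 130 bases before the RefSeq start of its gene on GRCm38.p6, written 5′ to 3′ on the strand of the gene, with the motif match in capitals. Asns is on the minus strand at chr6:7693210-7693339 and Nupr1 on the minus strand at chr7:126625471-126625600, and both hold the C/EBP-ATF element TGATGNAAN, which in Nupr1 reads on the opposite strand. Hspa5 is on the plus strand at chr2:34771960-34772089 and Dnajc3 on the plus strand at chr14:118937802-118937931, and both hold the ERSE, a reticulum stress element with the letters CCAAT, any 9 bases and CCACG.
Asns: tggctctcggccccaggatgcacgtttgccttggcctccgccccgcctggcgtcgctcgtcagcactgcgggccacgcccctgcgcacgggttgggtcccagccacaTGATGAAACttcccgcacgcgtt
Nupr1: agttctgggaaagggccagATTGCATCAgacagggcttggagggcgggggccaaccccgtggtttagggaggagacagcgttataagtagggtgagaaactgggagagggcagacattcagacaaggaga
Hspa5: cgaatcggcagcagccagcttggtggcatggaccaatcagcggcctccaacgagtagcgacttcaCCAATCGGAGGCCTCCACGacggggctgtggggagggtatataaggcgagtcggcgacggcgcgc
Dnajc3: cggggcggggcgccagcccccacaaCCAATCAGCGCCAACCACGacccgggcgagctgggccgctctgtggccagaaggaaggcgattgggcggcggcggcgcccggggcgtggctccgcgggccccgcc

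RefSeq promoter windows of 300 bases, running from 250 bases before to 50 after a start, were found for 34 of the 37 genes, 19 of the amino acid class and 15 of the reticulum class. Both strands were searched. The C/EBP-ATF element was present for 6 genes, which were Asns, Nupr1, Chac1, Trib3 and Slc7a11 of the amino acid class and Herpud1 of the reticulum class, and in 3.95% of all 32851 mouse windows. The other amino acid genes with a window, Mthfd2 among them, had no match to this element. The ERSE was present for 7 genes, all of the reticulum class (Hspa5, Hsp90b1, Calr, Canx, Pdia6, Dnajc3 and Creld2), and in 0.119% of all windows. The shorter ERSE-II (ATTGG, any 1 base and CCACG) was present for Herpud1 and Dnajb11 and in 0.0365% of all windows. The UPRE core TGACGTGG had no match among the 34 genes and was in 0.676% of all windows. The palindromic CRE, TGACGTCA, to which Creb5 and Atf family dimers are known to bind, was found for Ppp1r15a and in 1.79% of all windows. A match here is a match of letters and does not show that a factor binds. Windows for Atf6, Slc7a5 and Manf were not used here.

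Of the 37 genes, 3 fell in iCreb5 cells and none rose. The 3 were Asns, the enzyme that makes asparagine, Mthfd2, a mitochondrial enzyme of the folate one-carbon cycle, and Nupr1, a small stress-induced chromatin protein. In iCreb5 cells Asns was 1.45-fold, Mthfd2 1.46-fold and Nupr1 1.885-fold below its level in tdTomato cells. No gene among the 17 chaperones and sensors of the reticulum passed in limma or edgeR (2 and 1 of them at an unadjusted p under 0.05), and DESeq2 called 1, Dnajc3. Among all genes tested edgeR called 2.81% and DESeq2 4.27% lower. No gene of either class was higher at an unadjusted p under 0.05 in limma, edgeR or DESeq2. The remaining 17 genes of the amino acid class, Atf4 among them, did not pass in limma. A change was called with limma on log2(value + 1) at a Benjamini-Hochberg adjusted p under 0.05 over all 16733 genes tested, with values in normalised counts. By this rule 2.85% of all genes tested were called lower in iCreb5, 3.87% higher and 6.72% in either direction. The 3 of 37 is close to the share of all genes called in either direction and above the share called lower, but it rests on 3 genes only, and the list as a whole was given no test. All 37 passed the filter on low values, a value of 10 or more in at least 6 of the 12 libraries, and 36 of them averaged 50 or more.

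**Figure D1:**
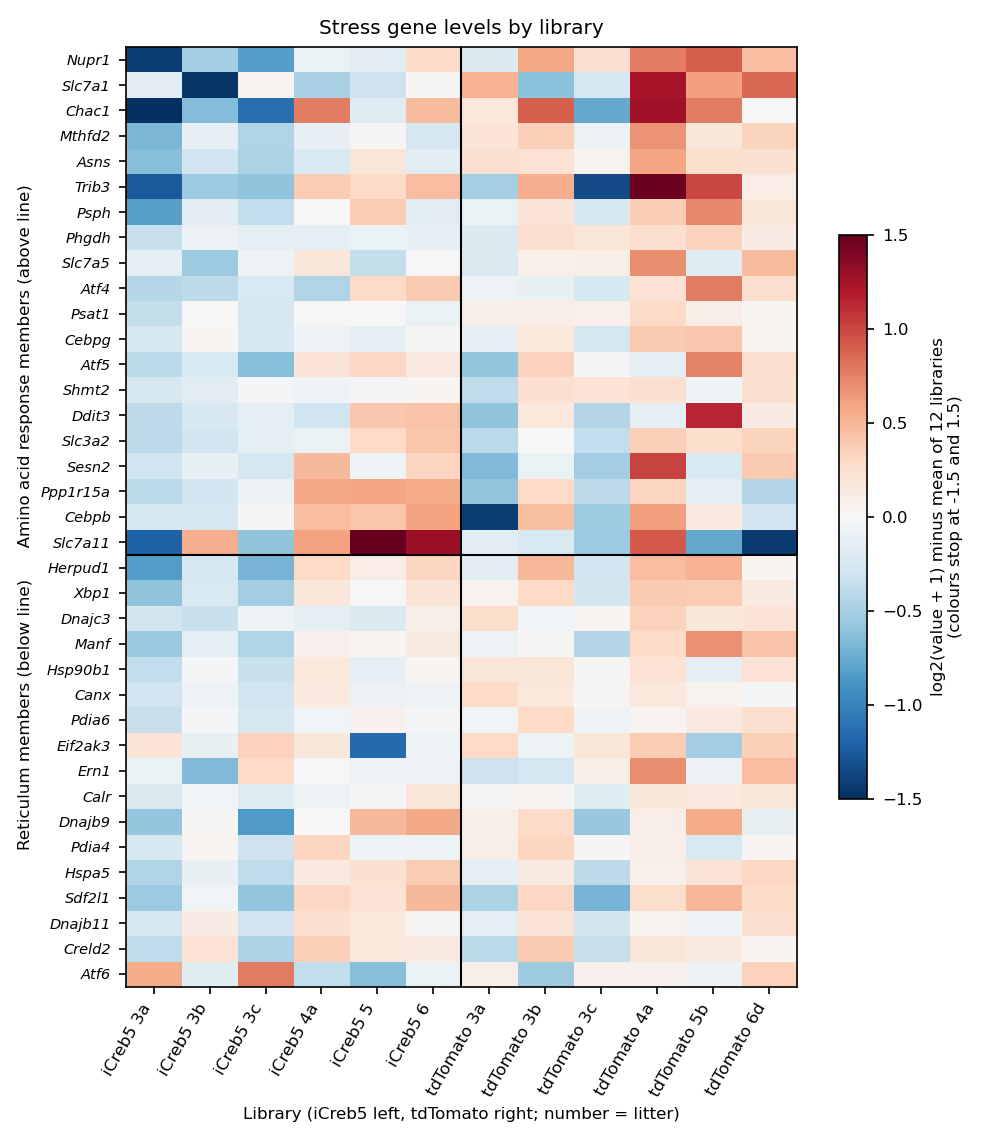
Deviation of each of the 37 genes from its own mean over the 12 libraries (colour, log2 of value + 1), with iCreb5 libraries left of tdTomato libraries and the genes grouped into the amino acid and reticulum classes. Library iCreb5 3a holds the lowest value of 14 of the 37 genes, and tdTomato 4a and 5b hold most of the highest values of the amino acid class.

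Asns (ENSMUSG00000029752; mm10 chromosome 6, 7675169 to 7693254, minus strand) had a lowest, median and highest normalised count of 1215, 1576 and 2148 in iCreb5 libraries, against 1956, 2216 and 2852 in tdTomato libraries. In words, 5 of the 6 iCreb5 libraries lay below every tdTomato library, and iCreb5 5 lay within the tdTomato range. The means were 1593 ± 321 in iCreb5 and 2284 ± 299 in tdTomato (SD, n = 6 each), a log2 change of -0.53 (SE 0.13, 95% interval -0.82 to -0.25, limma adjusted p = 0.0237). Asns was lower in iCreb5 in all 4 litters, by -0.64 in litter 3, -0.82 in litter 4, -0.08 in litter 5 and -0.39 in litter 6 on the log2 scale.

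Mthfd2 (ENSMUSG00000005667; chromosome 6, 83305691 to 83325908, minus strand) had a lowest, median and highest normalised count of 861, 1218 and 1409 in iCreb5 libraries, against 1307, 1665 and 2217 in tdTomato libraries. Here too 5 of the 6 iCreb5 libraries lay below every tdTomato library, and iCreb5 5 was again the one inside the tdTomato range. The means were 1166 ± 199.8 in iCreb5 and 1698 ± 304 in tdTomato (SD, n = 6 each), a log2 change of -0.54 (SE 0.14, 95% interval -0.85 to -0.24, limma adjusted p = 0.0319). Its 4 litter differences were all negative and ran between -0.80 in litter 4 and -0.14 in litter 5.

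Nupr1 (ENSMUSG00000030717; chromosome 7, 126623249 to 126630861, minus strand) was less abundant, with a lowest, median and highest normalised count of 132, 282 and 431 in iCreb5 libraries, against 307, 509.8 and 659 in tdTomato libraries. The 3 iCreb5 libraries of litter 3 lay below every tdTomato library, and those of litters 4, 5 and 6 lay inside the tdTomato range. The means were 276 ± 106 in iCreb5 and 502 ± 126 in tdTomato (SD, n = 6 each), a log2 change of -0.91 (SE 0.26, 95% interval -1.46 to -0.37, limma adjusted p = 0.0437). The litter differences were -1.13, -0.86, -1.05 and -0.18 in litters 3, 4, 5 and 6.

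**Figure D2:**
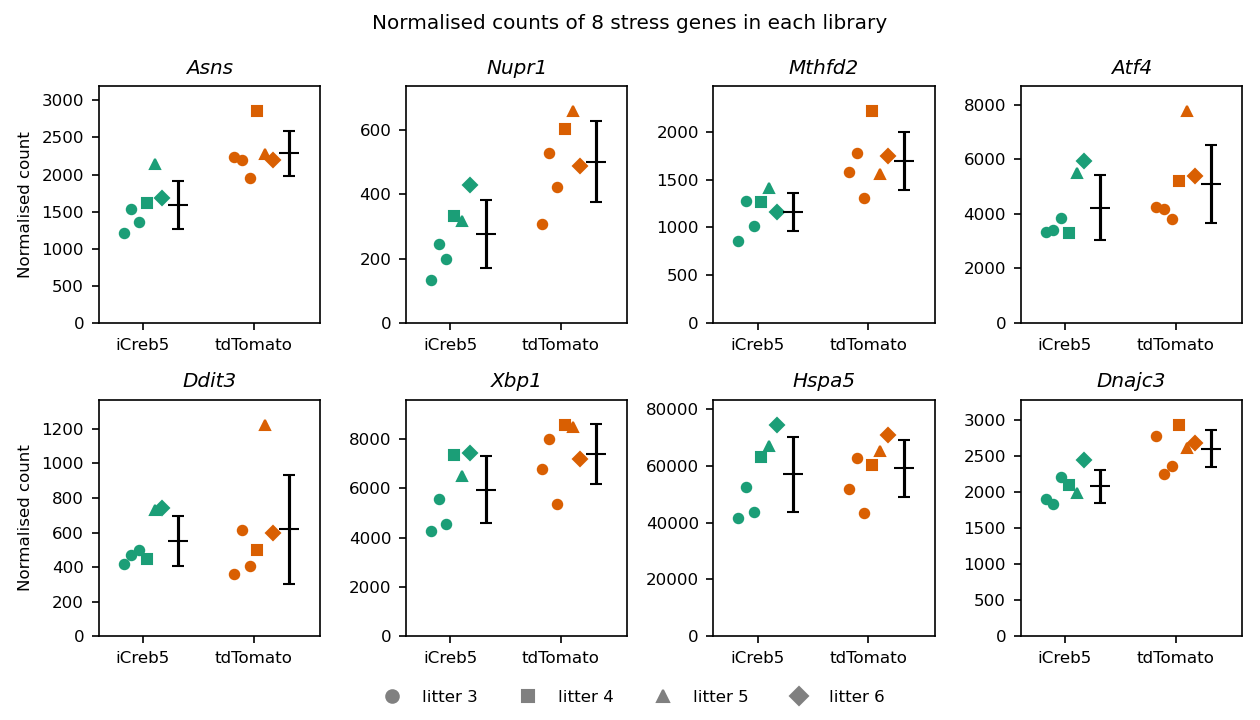
Normalised counts of 8 genes in each library (points; the marker shape gives the litter), with the mean and SD of each group of 6, iCreb5 left of tdTomato. Asns and Mthfd2 have 5 of 6 iCreb5 points below all tdTomato points, while the 2 groups of Hspa5 cover much the same range and the tdTomato range of Ddit3 encloses the iCreb5 range.

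The 3 calls rested on single libraries in part. Asns lost its call without iCreb5 3a, 3b or 3c or without tdTomato 4a, and its adjusted p ran between 0.00447 and 0.0626 when 1 library at a time was left out. Mthfd2 kept its call without 6 of the 12 libraries, and lost it without iCreb5 3a, 3c or 6 or without tdTomato 3b, 4a or 6d (adjusted p between 0.0193 and 0.0795). Nupr1 kept its call without 4 of the 12, and lost it without iCreb5 3a, 3b or 3c or without tdTomato 3b, 3c, 4a, 5b or 6d (between 0.0194 and 0.0996). All 3 estimates stayed negative in all 27 other settings, which run between -0.67 and -0.43 for Asns, -0.62 and -0.46 for Mthfd2, and -1.17 and -0.70 for Nupr1. DESeq2 called all 3, and edgeR called Asns and Mthfd2 but not Nupr1. With libraries scaled to equal totals Asns kept its call (adjusted p = 0.049), and Mthfd2 and Nupr1 did not (0.0654 and 0.0526). In the fit with the litter as a block the adjusted p was 0.0081 for Asns, 0.0162 for Mthfd2 and 0.0106 for Nupr1. With the 3 libraries a group of litter 3 averaged to 1 in that block, Mthfd2 and Nupr1 kept their calls and Asns lost its call.

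**Figure D3:**
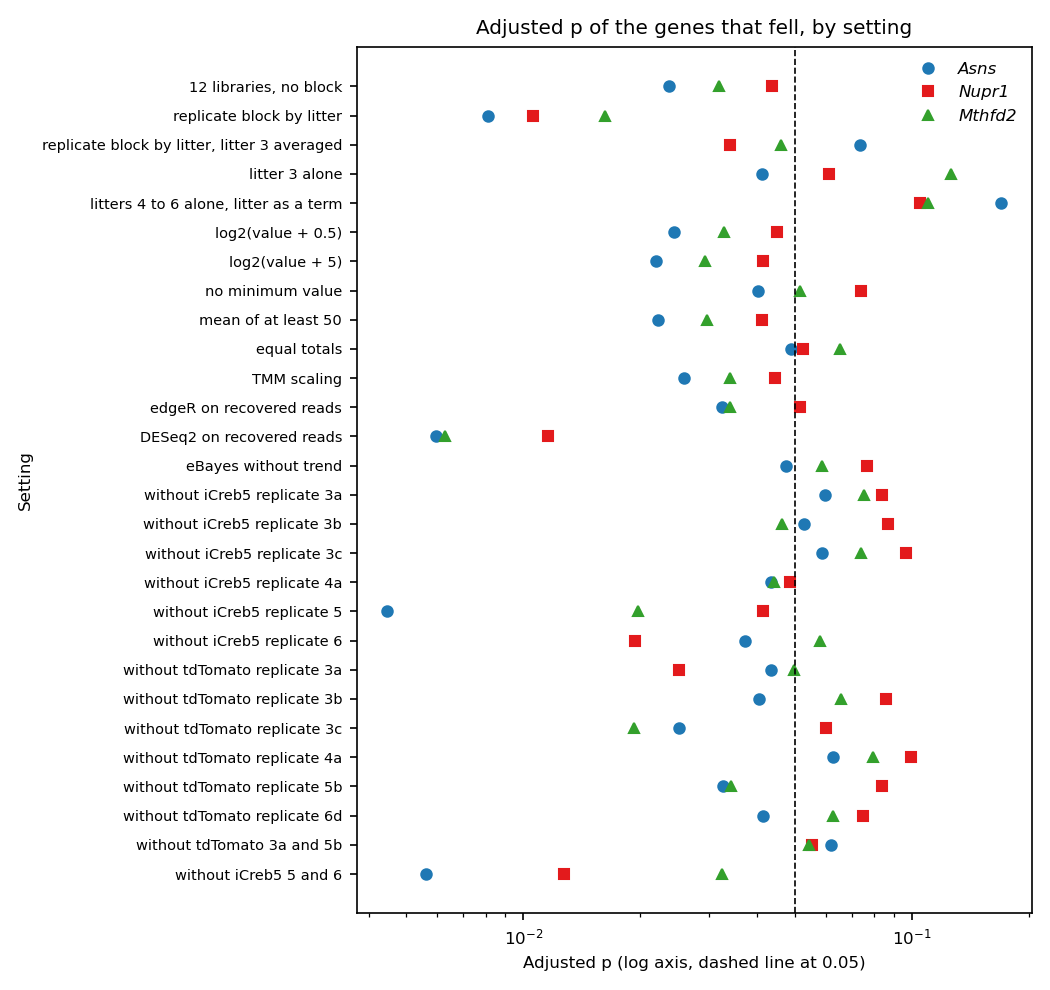
Adjusted p of Asns, Nupr1 and Mthfd2 (log axis, dashed line at 0.05) under each way of fitting or scaling the data, with the fit on 12 libraries without a block at the top. Asns lies below 0.05 in 20 of the 27 other settings, Mthfd2 in 15 and Nupr1 in 12, and all 3 lie above it in litters 4 to 6 alone.

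Atf4, the transcription factor at the head of the response, was abundant, with a lowest, median and highest normalised count of 3280, 3628 and 5931 in iCreb5 libraries, against 3811, 4743 and 7754 in tdTomato libraries. The groups overlapped, and within each group the libraries of litters 5 and 6 were the highest, with tdTomato 4a close below tdTomato 6d. The log2 change of Atf4 mRNA was -0.27 (95% interval -0.68 to 0.13, limma adjusted p = 0.501), and iCreb5 was lower in 3 of the 4 litters.

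Ddit3, the transcription factor CHOP that Atf4 raises under lasting stress, had a lowest, median and highest normalised count of 418, 485 and 739 in iCreb5 libraries, against 363, 549 and 1222 in tdTomato libraries. The tdTomato range enclosed the whole iCreb5 range, and its highest value came from tdTomato 5b alone. The log2 change was -0.08 (95% interval -0.62 to 0.46, limma adjusted p = 0.916). Exons of Ddit3 overlap those of Mars and Gm4189 on the opposite strand. They also overlap a second annotated gene named Ddit3 on the same strand, from which strand could not separate reads. Whether the counting used strand is not stated by the labels, so the reads of Ddit3 and Mars cannot be told apart either.

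The partners and brakes of Atf4 did not pass the test either. Cebpb, a C/EBP partner, averaged 2256 ± 572 in iCreb5 and 1922 ± 860 in tdTomato (log2 change 0.34), and Cebpg, another partner, averaged 1512 ± 126 and 1768 ± 325 in the same order (-0.21). Atf5, a related factor, had a log2 change of -0.20 at a mean of 80.2 ± 20.3 in iCreb5 and 93.8 ± 29.6 in tdTomato. Trib3, a pseudokinase that restrains Atf4 and Ddit3, spanned 84.3 to 281 in iCreb5 libraries and 79.5 to 568 in tdTomato libraries, with a log2 change of -0.43 and a wide interval of -1.32 to 0.47. Chac1, which degrades glutathione and is a sensitive Atf4 target, averaged 128.5 ± 78.5 in iCreb5 and 208 ± 96.2 in tdTomato (-0.78, interval -1.65 to 0.09, limma adjusted p = 0.337). Sesn2, a leucine-binding inhibitor of mTORC1 signalling, had means of 533 in iCreb5 and 555 in tdTomato and a log2 change of 0.03. Ppp1r15a (GADD34), which brings a phosphatase to eIF2 and ends the response, averaged 5443 ± 1691 in iCreb5 and 4331 ± 1205 in tdTomato (0.31, interval -0.14 to 0.76, limma adjusted p = 0.492). Exons of Cebpb, Cebpg, Atf5 and Ppp1r15a also overlap genes on the opposite strand, and those of Cebpg overlap Gm44836 on its own strand.

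The serine pathway supplies one-carbon units to Mthfd2, and its genes all had estimates below 0 without passing in limma. Phgdh, the first enzyme, averaged 4381 ± 272 in iCreb5 and 5476 ± 685 in tdTomato (log2 change -0.31, interval -0.53 to -0.10, limma adjusted p = 0.0871). DESeq2 called Phgdh lower, as did limma in 2 of the other settings, without tdTomato 3a and without tdTomato 3a and 5b. Psat1, the second enzyme, was the only one of the 37 genes whose groups did not overlap, where 4.75% of all genes tested had groups apart. It ran between 1990 and 2564 in iCreb5 libraries and between 2604 and 3106 in tdTomato libraries, for a log2 change of -0.23 (limma adjusted p = 0.204). Psph, the last enzyme of serine synthesis, had a log2 change of -0.37 (means 337 and 434 in iCreb5 and tdTomato), with litter differences between -0.39 and -0.34. Shmt2, which passes the serine carbon to folate in mitochondria, averaged 2784 ± 192 in iCreb5 and 3157 ± 506 in tdTomato (-0.17). Exons of Psph and Shmt2 overlap those of Cct6a and Ndufa4l2 on the opposite strand.

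None of the 4 amino acid transporters passed the test with 12 libraries, and their estimates lay on both sides of 0. Slc7a1, a carrier of arginine and lysine, averaged 244 ± 75.2 in iCreb5 and 438 ± 191 in tdTomato, with a log2 change of -0.79 (interval -1.45 to -0.13, limma adjusted p = 0.174) and lower iCreb5 values in all 4 litters. Slc7a5, the light chain of the carrier of large neutral amino acids, averaged 1022 ± 179 in iCreb5 and 1284 ± 336 in tdTomato (-0.31), while its shared heavy chain Slc3a2 averaged 3538 ± 819.5 and 3707 ± 849.9 in the same order (-0.06). Slc7a11, the cystine carrier, was the least abundant of the 37 genes per kilobase of merged exons, and it averaged 55.4 ± 35.7 in iCreb5 and 30.2 ± 18.9 in tdTomato. Its log2 change of 0.74 had the widest interval of all, -0.29 to 1.77, and its litter differences were -0.11 and -0.32 in litters 3 and 4 but 2.38 and 2.73 in litters 5 and 6.

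**Figure D4:**
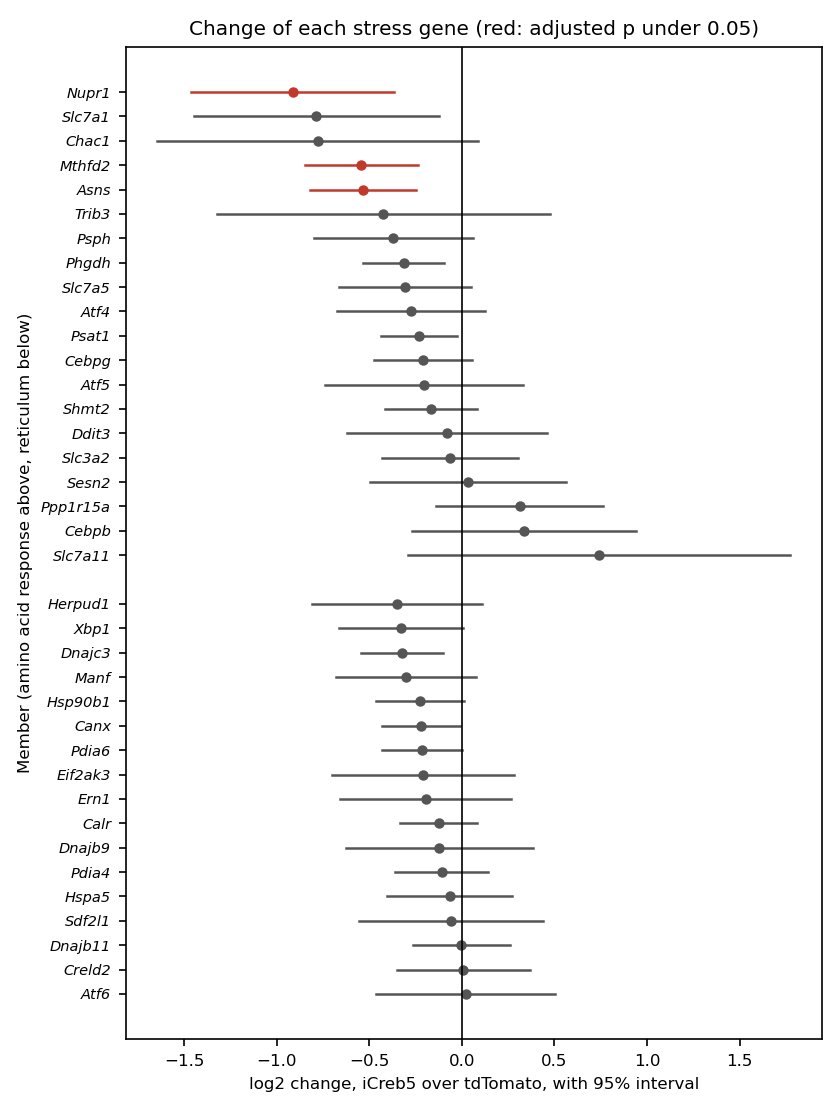
Log2 change in iCreb5 against tdTomato with its 95% interval for each of the 37 genes (limma on 12 libraries), with called genes in red. The 3 called genes lie at -0.53, -0.54 and -0.91, and all 17 reticulum intervals lie inside a 2-fold change in either direction, while the intervals of Nupr1, Slc7a11, Chac1, Trib3 and Slc7a1 reach beyond it.

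The reticulum class held the most abundant of the 37 genes. Per kilobase of merged exons, and averaged over all 12 libraries, the normalised count was 13723 for Hspa5, 9189 for Pdia6, 8778 for Calr, 8057 for Hsp90b1 and 7212 for Pdia4, against 1983 for Phgdh, the highest of the amino acid class. The 95% interval of the log2 change excluded a 2-fold difference in both directions for all 17 reticulum genes. In the amino acid class it did so for 13 of the 17 genes that did not pass the test.

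Hspa5, the Hsp70 chaperone BiP that holds the sensors inactive, had a lowest, median and highest normalised count of 41597, 57804 and 74320 in iCreb5 libraries, against 43253, 61564 and 70841 in tdTomato libraries. The ranges nearly coincided, and in both groups the highest library was that of litter 6. Its log2 change was -0.07 (95% interval -0.40 to 0.27, limma adjusted p = 0.886). Hsp90b1, the Hsp90 of the reticulum, averaged 30041 ± 4373 in iCreb5 and 34933 ± 3242 in tdTomato (-0.22, interval -0.46 to 0.01).

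Xbp1, the factor spliced by IRE1, had a lowest, median and highest normalised count of 4284, 6027 and 7442 in iCreb5 libraries, against 5379, 7584 and 8562 in tdTomato libraries. The groups overlapped, with iCreb5 3a and 3c below every tdTomato library and the other 4 iCreb5 libraries inside the tdTomato range. The log2 change of total Xbp1 mRNA was -0.33 (95% interval -0.66 to 0.01, limma adjusted p = 0.284). The sensor genes themselves had log2 changes of 0.02 for Atf6, -0.20 for Ern1 and -0.21 for Eif2ak3, at means of 436, 128 and 720.4 in iCreb5 and 411, 149 and 809.8 in tdTomato.

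Among the Hsp40 cochaperones, Dnajc3 (p58IPK), an inhibitor of PERK whose promoter is shown above, came nearest to the threshold. It averaged 2074 ± 226 in iCreb5 and 2596 ± 255 in tdTomato, a log2 change of -0.32 (interval -0.55 to -0.10, limma adjusted p = 0.0807), with lower iCreb5 values in all 4 litters. With the litter as a block it passed (adjusted p = 0.0447), where 4.35% of all genes tested were called lower, but it did not pass in the block with litter 3 averaged. Dnajb11 averaged 4855 ± 736 in iCreb5 and 4851 ± 651 in tdTomato, with an interval of its log2 change of -0.26 to 0.26. Dnajb9, which keeps IRE1 inactive, had a log2 change of -0.12 (interval -0.63 to 0.38), and Sdf2l1, a cofactor of Hspa5, one of -0.06 (interval -0.56 to 0.44).

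The lectin chaperones and disulfide isomerases had small negative estimates. Canx, the membrane-bound lectin chaperone, averaged 15999 ± 1913 in iCreb5 and 18582 ± 1528 in tdTomato (log2 change -0.22, interval -0.43 to -0.01, limma adjusted p = 0.248), and its soluble partner Calr had a log2 change of -0.13. Pdia6 averaged 31855 ± 3397 in iCreb5 and 36967 ± 3822 in tdTomato (-0.22), and Pdia4 averaged 16680.4 ± 2711 and 17924 ± 2150 in the same order (-0.11). Herpud1, a membrane protein of reticulum-associated degradation, had the lowest estimate of the class at -0.35, with a 95% interval of -0.81 to 0.11. Of the secreted stress factors, Manf had a log2 change of -0.30 (means 2804 and 3513 in iCreb5 and tdTomato) and Creld2 of 0.01 (means 2699 and 2674). Exons of Dnajb9, Eif2ak3, Hsp90b1, Manf and Pdia6 overlap genes on the opposite strand. On the same strand, exons of Manf overlap Rbm15b, those of Hsp90b1 overlap Gm15344 and Gm25745, and those of Pdia4 overlap Mir704.

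Most single estimates were below 0 although few passed. The log2 change was negative for 31 of the 37 genes, against 8273 of the 16733 genes tested (49.4%), and its median was -0.21 over the 37 genes and 0.00 over all genes tested. By class the median was -0.25 with 16 of 20 below 0 in the amino acid class (15 with equal totals) and -0.20 with 15 of 17 below 0 in the reticulum class (14 with TMM scaling, 12 with equal totals). An unadjusted limma p under 0.05 was reached by 8 of the 37 genes, where 18.2% of all genes tested reached it. These counts and medians are descriptions and were given no test. With libraries scaled to equal totals the median of all genes tested was 0.07 and that of the 37 genes -0.14.

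Single libraries carried much of the spread. Library tdTomato 4a held the highest value for 9 of the 20 amino acid genes and 5 of the 17 reticulum genes, and tdTomato 5b for 7 and 3. At the other end iCreb5 3a held the lowest value for 7 genes of each class, and tdTomato 3a, the shallowest library, for 6 of the amino acid genes and none of the reticulum genes. The median coefficient of variation between libraries was 25.4% in iCreb5 and 27.0% in tdTomato for the amino acid class, and 20.3% and 16.8% in the same order for the reticulum class.

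The litters gave similar directions for some genes and not for others. Of the 37 genes, 14 were lower in iCreb5 in all 4 litters, 9 of the amino acid class and 5 of the reticulum class. The share of all genes tested that were lower in all 4 litters was not computed, so this count has no background. Each of litters 4 to 6 compares single libraries. In litter 3 alone, with 3 libraries a group, Asns passed (log2 change -0.64, limma adjusted p = 0.0411), where 1.75% of all genes tested were called lower. In litters 4 to 6 together, Slc7a1 was lower (-1.16, adjusted p = 0.0217) and Ppp1r15a was higher (0.66, adjusted p = 0.0431), where 2.2% of all genes tested were called lower and 1.91% higher. The class medians were -0.25 for the amino acid and -0.22 for the reticulum class in litter 3, and -0.34 and -0.09 in the same order in litters 4 to 6. The difference between the litter sets was tested as an interaction in limma. No gene of the 16733 passed, and the smallest adjusted p among the 37 was 0.513, for Atf6, which had a log2 change of 0.51 in litter 3 and -0.47 in litters 4 to 6. Batch labels follow the litters one to one, so the effects of batch and litter cannot be told apart.

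Further genes of the same pathways were read from 8 lists. Among 21 genes of amino acid synthesis, one-carbon metabolism and transport, 2 fell and none rose, where 2.85% of all genes tested were called lower. Bcat1, the cytosolic branched-chain transaminase, averaged 1805 ± 228 in iCreb5 and 2902 ± 352 in tdTomato (log2 change -0.69, limma adjusted p = 0.000954). Pycr1, which makes proline, averaged 2568 ± 222 in iCreb5 and 3517 ± 439 in tdTomato (-0.45, adjusted p = 0.0145). The groups of both genes did not overlap, where 4.75% of all genes tested had groups apart. Both calls held without any 1 of the 12 libraries. Bcat1 was also called in litter 3 alone, in litters 4 to 6 alone and in the block with litter 3 averaged, and Pycr1 in none of these. The median of the list was -0.05. The 2 genes of highest normalised count that did not pass were Slc38a2, a glutamine carrier (-0.15), and Aldh18a1, which acts before Pycr1 in proline synthesis (-0.14).

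None of 21 genes, aminoacyl-tRNA synthetases and the tRNA export factor Xpot, passed in limma without a block or in edgeR. In each of these fits 4 reached an unadjusted p under 0.05. Nars was called lower in DESeq2 and in limma with the litter as a block. Of all genes tested 4.27% and 4.35% were called lower in the same order. The median log2 change of the 21 was -0.13, with -0.22 for Eprs and -0.23 for Gars, those of highest normalised count. None of 14 genes of the eIF2 kinases, phosphatases and eIF2B passed over 12 libraries in limma, edgeR or DESeq2. At an unadjusted p under 0.05 there were 0, 0 and 1 in the same order. In litters 4 to 6 alone, limma called 2 of the 14 lower, Eif2s3x and Ppp1r15b, where 2.2% of all genes tested were. The median of the 14 over 12 libraries was -0.04, with single values of -0.16 for Eif2s1 and 0.25 for Eif2b5. Of 19 further genes of the integrated stress response 1 rose, where 3.87% of all genes tested were called higher. It was Trib1, a pseudokinase that directs C/EBP proteins to degradation. Trib1 averaged 1076 ± 199 in iCreb5 and 594 ± 166 in tdTomato (log2 change 0.87, limma adjusted p = 0.00451), and its call held without any 1 of the 12 libraries. Without tdTomato 4a the count in this list was 3 higher, and the litter block added 1 lower, Eif4ebp1. The median of those 19 genes was -0.11.

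Genes that move proteins into and out of the reticulum made the longest of the 8 lists. Among 31 genes of entry, signal cleavage and export, 5 fell, none rose, and all 31 estimates were below 0. Their median log2 change was -0.31. With equal totals 27 were below 0, and in litters 4 to 6 alone 26, with a median of -0.21. Of all genes tested, 2.85% were called lower and 49.4% had estimates below 0. Kdelr3, Kdelr2 and Kdelr1 are the receptors that return escaped chaperones to the reticulum. Kdelr3 averaged 8089 ± 1378 in iCreb5 and 12165 ± 1397 in tdTomato (-0.60, limma adjusted p = 0.00521), and Kdelr2 averaged 5779 ± 759 and 7985 ± 951 in the same order (-0.47, adjusted p = 0.0162). Kdelr1 averaged 1488 ± 415 in iCreb5 and 2348 ± 597 in tdTomato (-0.67, adjusted p = 0.0408), and it kept its call without 5 of the 12 libraries, losing it without iCreb5 3b, 3c or 4a or without tdTomato 3a, 4a, 5b or 6d. Lman1, a cargo receptor, fell by 0.49 on the log2 scale (adjusted p = 0.0378), and kept its call only without iCreb5 3c, iCreb5 4a or tdTomato 5b. Tram1, a part of the translocation channel, averaged 7245 ± 697 in iCreb5 and 9737 ± 932 in tdTomato (-0.43, adjusted p = 0.0115). The summed normalised count of the 31 genes lay between 164028 and 198673 in iCreb5 libraries and between 214818 and 235880 in tdTomato libraries. The count of calls depended on the fit. It was 10 with the litter as a block, 3 in the block with litter 3 averaged (Kdelr1, Kdelr3 and Lman1), 10 with DESeq2, 7 in litter 3 alone, 4 with edgeR, 3 with equal totals (where 2.28% of all genes tested were called lower) and 0 in litters 4 to 6 alone, where 11 of the 31 genes were lower at an unadjusted limma p under 0.05. Leaving out 1 library gave 3 to 7, with 3 without iCreb5 3b or tdTomato 3a, 4a or 6d and 7 without tdTomato 5b.

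**Figure D5:**
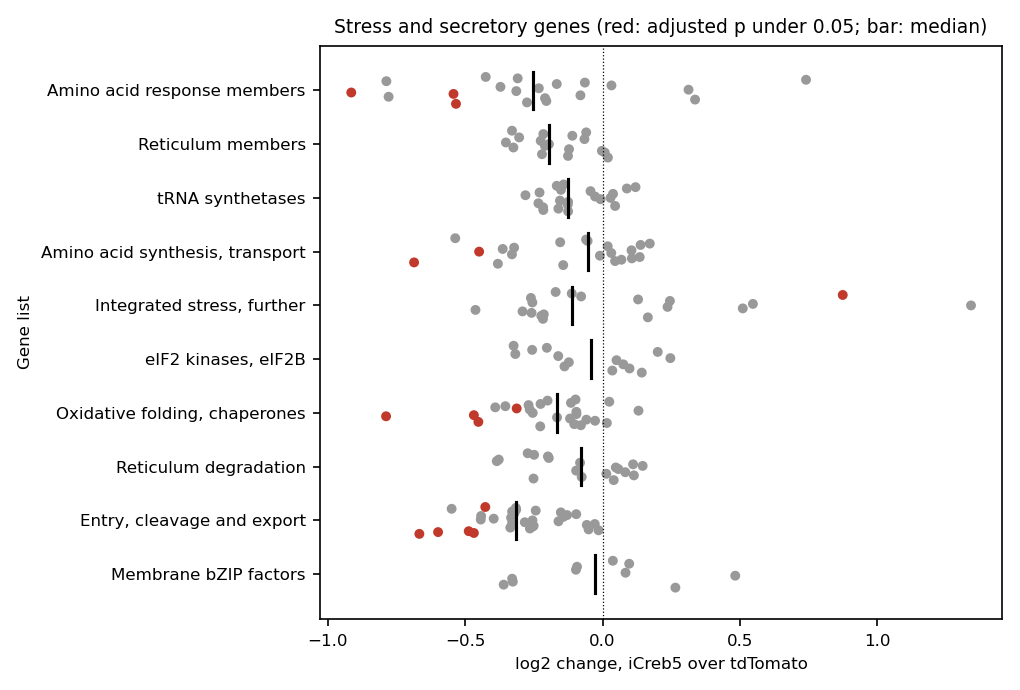
Log2 change of each gene in iCreb5 over tdTomato (points; red where the adjusted p is under 0.05) for the 2 classes of the 37 genes and the 8 other pathway lists, with the median of each list as a bar. The 31 genes of entry, cleavage and export all lie below 0 (27 with equal totals, 26 in litters 4 to 6 alone). Their median is -0.31. Of the 25 oxidative folding genes 22 lie below 0 (20 with equal totals, 19 in litter 3 alone), against 49.4% of all genes tested.

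Of 25 further genes of oxidative folding, 4 fell and none rose, where 2.85% of all genes tested were called lower. The median log2 change was -0.17. The count was 6 with the litter as a block, but 2 (Fkbp11 and Fkbp14) in the block with litter 3 averaged, in litter 3 alone, with equal totals, with no minimum value and without the eBayes trend. In litters 4 to 6 alone it was 1, Uggt1, which is none of the 4. Leaving out 1 library gave 5 without tdTomato 5b, 3 without iCreb5 6 and 2 without any other. Fkbp11 and Fkbp14, prolyl isomerases of the reticulum, both fell. Fkbp11 had a log2 change of -0.79 (limma adjusted p = 0.00845) and Fkbp14, at a mean of 3886 ± 300.3 in iCreb5 and 5380.0 ± 484 in tdTomato, of -0.47 (adjusted p = 0.00456). Ero1l, the oxidase that recharges disulfide isomerases, fell by 0.45 on the log2 scale (adjusted p = 0.0451), and kept its call only without tdTomato 5b. Pdia3, the isomerase that works with Calr and Canx, averaged 36885 ± 2926 in iCreb5 and 45721 ± 2033 in tdTomato (-0.31, adjusted p = 0.0401), and kept its call only without iCreb5 6 or tdTomato 5b. The collagen chaperone Serpinh1 and the isomerase P4hb had the highest normalised counts among those that did not pass. Their log2 changes were -0.27 and -0.27. None of 18 genes of reticulum-associated degradation passed in limma or edgeR (4 and 3 at an unadjusted p under 0.05) and 1 in DESeq2, with a median of -0.08, and -0.38 for Selenok and -0.38 for Selenos. None of 10 membrane-bound bZIP factors and their proteases passed over 12 libraries in limma, edgeR or DESeq2, with a median of -0.03. At an unadjusted p under 0.05 there were 3, 2 and 2 in the same order. Limma called Creb3l2 lower in litters 4 to 6 alone, where 2.2% of all genes tested were. It called Creb3l1 lower without tdTomato 3a and 5b, where 427 of the 16733 genes tested were.

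Other gene groups moved far more between the same libraries, and their part in these results was not tested. Of all genes tested, 2.85% were called lower in iCreb5 and 3.87% higher. Of 20 cartilage genes, 19 were lower in iCreb5, with a median log2 change of -1.56, and their summed normalised count lay between 130862 and 172728 in iCreb5 and between 261493 and 524535 in tdTomato. Of 10 osteoblast genes tested, 8 were lower (median -1.44). The sums over all 13 osteoblast genes listed were 100072 to 245892 in iCreb5 and 83863 to 334362 in tdTomato. Of 15 leukocyte genes, 14 were higher (median 2.93), with sums of 2684 to 12063 in iCreb5 and 669 to 1232 in tdTomato, and the defining marker Ptprc was at 0 in 3 libraries. Of 10 endothelial genes, 5 were higher, with sums of 2249 to 4824 in iCreb5 and 1735 to 2469 in tdTomato. That count was 2 without iCreb5 3a, 3b, 3c or 6 or tdTomato 3a or 3b, 3 without iCreb5 4a or tdTomato 3c, 4a or 6d, and 1, beside 1 lower, in litters 4 to 6 alone. Among stress genes outside the reticulum, none of 12 cytosolic heat shock genes passed in limma, edgeR or DESeq2 (0, 1 and 1 at an unadjusted p under 0.05, median -0.08), and none of 11 immediate early genes did (1 in each, median 0.17). Of 10 limb mesenchyme genes 1 was higher (Tbx4), and of 7 Schwann cell and melanoblast genes tested 1 was lower (Sox10). Tbx4 kept its call without 5 of the 12 libraries, and Sox10 kept its call whichever library was left out. The skeletal muscle, red cell and epidermis lists had 0 calls in limma, edgeR and DESeq2. These had at most 1 gene at an unadjusted p under 0.05. In sorted bulk cells, fewer cells of a type and less RNA per cell cannot be told apart. Without iCreb5 5 and 6, the libraries with the 2 highest leukocyte sums, the 3 called genes were again Asns, Mthfd2 and Nupr1, but the leukocyte difference remained as well, with 14 of 15 genes higher and a median of 2.42.

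The libraries held between 9.02 M and 53.3 M reads (M for mega), and the mean was 30.5 M in iCreb5 and 25.8 M in tdTomato (exact two-sided permutation p = 0.511, n = 6 each). The deposited normalised counts summed to 24.9 M in iCreb5 and 26.1 M in tdTomato on average (exact two-sided permutation p = 0.00649). A count of 3 reads was worth between 1.48 and 8.38 normalised counts, so the 37 genes lay above the counting floor, with Slc7a11 in tdTomato libraries the nearest to it. The limb mesenchyme marker Prrx1 was present in every library, at 3066 to 4620 in iCreb5 and 3955 to 6260 in tdTomato. Creb5 itself was listed at 2555 to 3162 in iCreb5 and 1470.5 to 2217 in tdTomato, and the labels do not say whether reads of the bovine transgene count toward it. Nor do they say whether a library is 1 embryo or a pool, so every p-value here reflects library-to-library spread, which may be partly technical.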

How the data were processed

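The authors sequenced polyadenylated RNA of sorted cells after RNeasy Plus Micro extraction and Nextera XT library preparation, per the labels' protocols. The submitters' processing notes name FastQC, STAR, Salmon, DESeq2 and the build mm10, with no role or version. Whether counting used strand is not stated there. The table the authors deposited gives a normalised signal per gene, called normalised count here. In every library each value is a multiple of the value of 1 read, so whole reads could be recovered for 100% of values (tolerance 1e-06). A further deposited table of normalised signal had 8 columns that match no labelled sample, and they were not used.

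Groups and litters came from the titles and batch labels; 4 litter numbers are labelled, and the design text counts 6 litters. The 16733 genes that reached a value of 10 in 6 or more of the 12 libraries were fitted with limma 3.58.1 in R 4.3.3 on log2(value + 1), two-sided, with eBayes trend, no covariate and Benjamini-Hochberg adjustment over all genes tested. Fold changes are on the log2(value + 1) scale, which understates changes of low genes. On the reading that the number in each name is the litter, samples of both groups were matched by litter, with no pairs set within litter 3. The correlation between the groups of their mean deviations in a litter was 0.129, 0.154, 0.346 and 0 in litters 3, 4, 5 and 6. A fit with litter as a block, edgeR 4.0.16 and DESeq2 1.42.0 on the recovered reads, other scalings, filters and pseudocounts, and fits without single libraries were alternatives. The fit was tested on simulated data.

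The 37 genes and the pathway and marker lists were chosen with earlier results of these data known. All 37 genes are described, with values by library for those called and for Atf4, Ddit3, Hspa5 and Xbp1. In each other pathway list the rule names up to 4 called genes, by size of change, and the 2 uncalled genes of highest mean normalised count, without regard to gene length. One more called gene of the export list, single genes called by other fits, and Creb5 were named after their values were seen. Among the 37 genes, levels were ranked per kilobase of merged exons. Promoter windows were RefSeq's on GRCm38.p6, and motif positions count from the RefSeq start, which can differ from the start in the gene annotation used for coordinates. Intervals cover 95%.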

Additional observations from a re-analysis of the deposited data

Results flagged for a closer look

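In 5 of the 74 groups of 6 libraries examined, 1 library lay far from the other 5, with a gap to the nearest of them, relative to the group's range, above Dixon's 95% critical value. Chance alone gives such a gap in about 1 in 20 groups. Asns in tdTomato 4a measured 2851.7, against 1955.6 to 2272.9 in the other tdTomato libraries. Psat1 in the same library measured 3106.2, against 2604.2 to 2735.4, and Slc7a11 measured 66.147, against 12.082 to 30.711. Ddit3 in tdTomato 5b measured 1221.7, against 362.95 to 617.21 in the other tdTomato libraries. Phgdh in iCreb5 3a was low at 3849.5, against 4399.6 to 4590.7 in the other iCreb5 libraries. Without tdTomato 4a, Asns had a log2 change of -0.47 and no longer passed the limma test.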

How the results depend on the processing

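The amino acid class had 3 genes lower in iCreb5 with 12 libraries. It had 1 in litter 3 alone (Asns), 1 in litters 4 to 6 alone (Slc7a1, beside 1 higher, Ppp1r15a), 1 with no minimum value, 1 with equal totals and 1 without the eBayes trend (each Asns), and 1 without tdTomato 3a and 5b (Phgdh). edgeR called 2 (Asns and Mthfd2) and DESeq2 4 (with Phgdh). Leaving out 1 library at a time gave 0 to 4, with 0 without iCreb5 3a, iCreb5 3c or tdTomato 4a, 1 without iCreb5 3b, tdTomato 3b or tdTomato 6d, and 4 without tdTomato 3a. The reticulum class had 0 lower and 1 (Dnajc3) in the fit with a replicate block by litter and with DESeq2. That block left the other members' calls as they were. With litter 3 averaged in the block, Dnajc3 was not called, and the calls were Mthfd2, Nupr1 and Slc7a1. Over all genes tested the block gave 859 higher and 728 lower, litter 3 alone 395 and 292, litters 4 to 6 alone 320 and 368, DESeq2 922 and 715, and edgeR 641 and 471, against 648 and 477 without a block. With equal totals 67.7% of calls were higher, against 57.6%, and the median of all genes was 0.07. Of 998 single-gene results under 27 settings, 956 kept their side of the threshold, 34 lost and 8 gained a call. None that was called changed sign, but 60 uncalled results, from 14 genes, did. Of 756 results of the 28 other named genes, 76 lost and 6 gained a call. The cause of these changes was not tested.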

Other observations

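The immediate early genes, which rise within minutes of a stimulus or of handling, did not pass in limma over 12 libraries, and their levels differed by litter. Their summed normalised count was 69578, 104963 and 114835 in the iCreb5 libraries of litters 4, 5 and 6, against 66422, 60502 and 71517 in the tdTomato libraries of the same litters. In litter 3 the sums lay between 47169 and 61549 in iCreb5 and between 50026 and 70539 in tdTomato, so the iCreb5 libraries of litters 5 and 6 stood above the other 10. In litters 4 to 6 alone, 2 of the 11 genes were called higher in iCreb5, where 1.91% of all genes tested were. With iCreb5 5 and 6 left out, 10 of the 11 estimates lay below 0, against 3 with 12 libraries. In that setting 1 of the 11, Btg2, was called lower, where 498 of the 16733 genes tested were.

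Ppp1r15a, which many stimuli induce quickly, measured 7005, 7029 and 6862 in the iCreb5 libraries of litters 4, 5 and 6, against 5859.5, 4274 and 3452 in the tdTomato libraries, whereas in litter 3 it lay between 3533 and 4392 in iCreb5 and between 3093 and 5749.6 in tdTomato. The difference between the litter sets did not pass for any of the 16733 genes (limma interaction, 0 called). The part of the immediate early level in the values of the 37 genes was not tested.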
